A study of Homo sapiens with 6 samples.

Results

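The ID genes and the feedback and target genes of TGF-beta and BMP signalling were followed in neuroblastoma cells in which MYCN had been switched on. The set held 9 of the 60651 gene identifiers in the deposited counts and was taken by gene symbol, with no threshold on measured values. It was chosen with earlier results of these data known, so counts within it are a description only. It consisted of ID1, ID2, ID3 and ID4, the inhibitors SMAD6, SMAD7, BAMBI and SKIL, and the matrix gene TGFBI. All 9 had at least 10 counts in at least 3 libraries and were tested. The cells were SK-N-AS, an established human neuroblastoma line, stably transfected with the tetracycline repressor and a MYCN cassette that tetracycline switches on. Both groups were single-clone cells kept under G418 and blasticidin, and the clone behind each library was not given. The 3 control libraries bear ETOH in their titles, and the 3 MYCN-induced libraries came from cells given tetracycline for 120 h by the titles, or 5 days by the treatment notes. Cells given tetracycline without the MYCN cassette were not analysed here, so an effect of tetracycline and an effect of MYCN cannot be told apart.

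TGF-beta and BMP ligands bind pairs of receptor kinases that phosphorylate SMAD proteins, which enter the nucleus with SMAD4 and act on target genes. The ID genes are among the best known direct targets of BMP signalling. Their proteins have a helix-loop-helix domain but no DNA-binding region, and they hold E proteins and other bHLH factors away from DNA, which in neural crest derivatives delays differentiation. SMAD6 and SMAD7 are inhibitory SMADs, BAMBI is a receptor-like protein without a kinase domain, SKIL (SnoN) is a co-repressor of SMADs, and TGFBI is a secreted matrix protein named for its induction by TGF-beta.

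Of the 9 genes, 1 changed past the threshold of an adjusted p of 0.05. TGFBI rose 1.74-fold. ID4, SMAD6 and BAMBI had lower values in every induced library than in any control library, with log2 fold changes of -0.58, -0.34 and -0.39, but none of these passed the adjustment over all genes. ID1, ID2, ID3, SMAD7 and SKIL had overlapping groups. Over all 29086 genes tested, 298 were called higher, a background of 1.02%, and 692 were called lower, a background of 2.38%, against 1 and 0 of the 9. At an unadjusted p under 0.05 there were 4 of the 9, with 18.7% of all genes tested at that level. The groups did not overlap for 4 of the 9 genes, 1 higher and 3 lower, and for 26.3% of all genes tested. The median log2 fold change of the 9 was 0.09, and that of all genes tested was -0.0004.

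The libraries held 64500589 to 102249336 counted read pairs. MYCN, the induced gene, was at 30.3, 35.5 and 32.4 CPM in the controls and at 210.7, 221.3 and 198.6 CPM in the induced libraries, which gave a log2 fold change of 2.68 with SE 0.08 (the standard error) and an adjusted p = 4.155e-05 in edgeR's test. CPM here are TMM-normalized counts scaled to a common library total. MYCN-induced replicate 3 stood apart on the first principal component, with a score of 69.1, where induced replicates 1 and 2 scored 14.4 and 13.1 and the controls from -40.3 to -25.9. It also had the highest level of integrated stress response genes, whose median log2 difference from the control mean was 0.94, 0.34 and 2.88 in induced replicates 1, 2 and 3, with 2 of 9 tested genes called higher (PHGDH, 2.09, adjusted p = 0.0482, and ATF4, adjusted p = 0.0475, from edgeR) and none lower. The PHGDH value was 1.40 without this library (adjusted p = 0.0188), and both calls were lost with a floor of 100 counts in every library (adjusted p = 0.0672 for PHGDH and 0.0648 for ATF4). Values without this library are given for each of the 9 genes, and the part that the stress response had in them was not tested. Of the defining markers of adrenergic neuroblastoma cells, HAND2 was at 349.3 to 558.9 CPM in all libraries, while TH, which makes catecholamines, was at 0.665 to 1.58 CPM. Of the 8 adrenergic markers 0 were called higher and 1 lower, with a summed level of 908.7 to 1287.5 CPM in controls and 907.6 to 1102.0 CPM in induced libraries. Of the 7 mesenchymal markers 6 were tested, 0 were called higher and 1 (FN1) lower, and CD44 had 0 counts in every library. Changes lay above 0 on the log2 scale for 5 of the 6 tested (median 0.25). At an unadjusted p under 0.05 in edgeR's test, 3 were higher and 1 lower, with 18.7% of all genes tested at that level. Beside the calls among stress response genes and markers, 1.02% of all genes tested were called higher and 2.38% lower. The 7 mesenchymal markers summed to 480.8 to 502.6 CPM in controls and 549.3 to 602.1 CPM in induced libraries. The 5 markers of blood, endothelial, epithelial and liver cells summed to 2.49 to 2.74 CPM in controls and 1.76 to 2.6 CPM in induced libraries, and none of the 3 tested was called, with PTPRC at 1.9 and 1.69 CPM and EPCAM at 0.367 and 0.414 CPM in the mean of each group. In bulk RNA, fewer cells of a type and less RNA per cell cannot be told apart.

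The promoters of the gene that passed the test and of the 3 genes with lower values in every induced library are shown first, since SMADs and MYCN both act at promoters through short DNA words. The sequences are the 250 bases before the RefSeq start of each gene on GRCh38.p14, all on the plus strand, at chr5:136028738-136028987 for TGFBI, chr15:66701986-66702235 for SMAD6, chr10:28677271-28677520 for BAMBI and chr6:19837120-19837369 for ID4. Capitals mark GTCT on either strand (written AGAC where it is on the other strand), the core of the element bound by SMAD3 and SMAD4.
TGFBI: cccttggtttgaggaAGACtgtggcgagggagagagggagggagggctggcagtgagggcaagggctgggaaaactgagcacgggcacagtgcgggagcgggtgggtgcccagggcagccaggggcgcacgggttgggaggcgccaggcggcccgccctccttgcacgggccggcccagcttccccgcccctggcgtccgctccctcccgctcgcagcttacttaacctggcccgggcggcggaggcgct
SMAD6: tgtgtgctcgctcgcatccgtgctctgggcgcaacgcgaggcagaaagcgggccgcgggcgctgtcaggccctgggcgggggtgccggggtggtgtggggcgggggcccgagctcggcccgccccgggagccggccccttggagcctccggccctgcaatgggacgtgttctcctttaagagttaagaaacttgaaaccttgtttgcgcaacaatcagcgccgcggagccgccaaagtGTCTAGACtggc
BAMBI: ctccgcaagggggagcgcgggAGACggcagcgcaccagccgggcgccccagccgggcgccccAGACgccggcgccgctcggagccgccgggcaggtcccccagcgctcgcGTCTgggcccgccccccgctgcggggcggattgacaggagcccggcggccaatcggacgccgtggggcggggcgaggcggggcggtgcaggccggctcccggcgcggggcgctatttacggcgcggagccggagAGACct
ID4: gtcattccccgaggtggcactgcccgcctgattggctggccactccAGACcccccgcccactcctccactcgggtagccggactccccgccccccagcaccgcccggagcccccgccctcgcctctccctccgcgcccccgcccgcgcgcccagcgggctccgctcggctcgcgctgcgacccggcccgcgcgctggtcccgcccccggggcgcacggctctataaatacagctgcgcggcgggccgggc

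Motifs were searched on both strands in windows from 250 bases before to 50 after each start, and all 9 genes matched, with 11 windows. CACGTG, the E-box that MYC proteins prefer, was in 0 of the 11 windows and in 7.3% of the 35116 RefSeq windows. GTCT was in all 11 and in 84.0% of all windows. The full palindrome GTCTAGAC, which contains GTCT on both strands, was in the SMAD6 window, beginning 12 bases before the start, and in 71 windows in all (0.2%). GGCGCC, the GC-rich word at BMP-responsive sites, was in 3 of the 11 windows and in 19.2% of all, with 3 matches in BAMBI, 1 in SKIL and 1 in TGFBI. The general E-box CANNTG, which includes CACGTG, was in 5 of the 11 windows and in 68.7% of all. These matches describe letters in a window, and binding was not measured here.

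**Figure D1:**
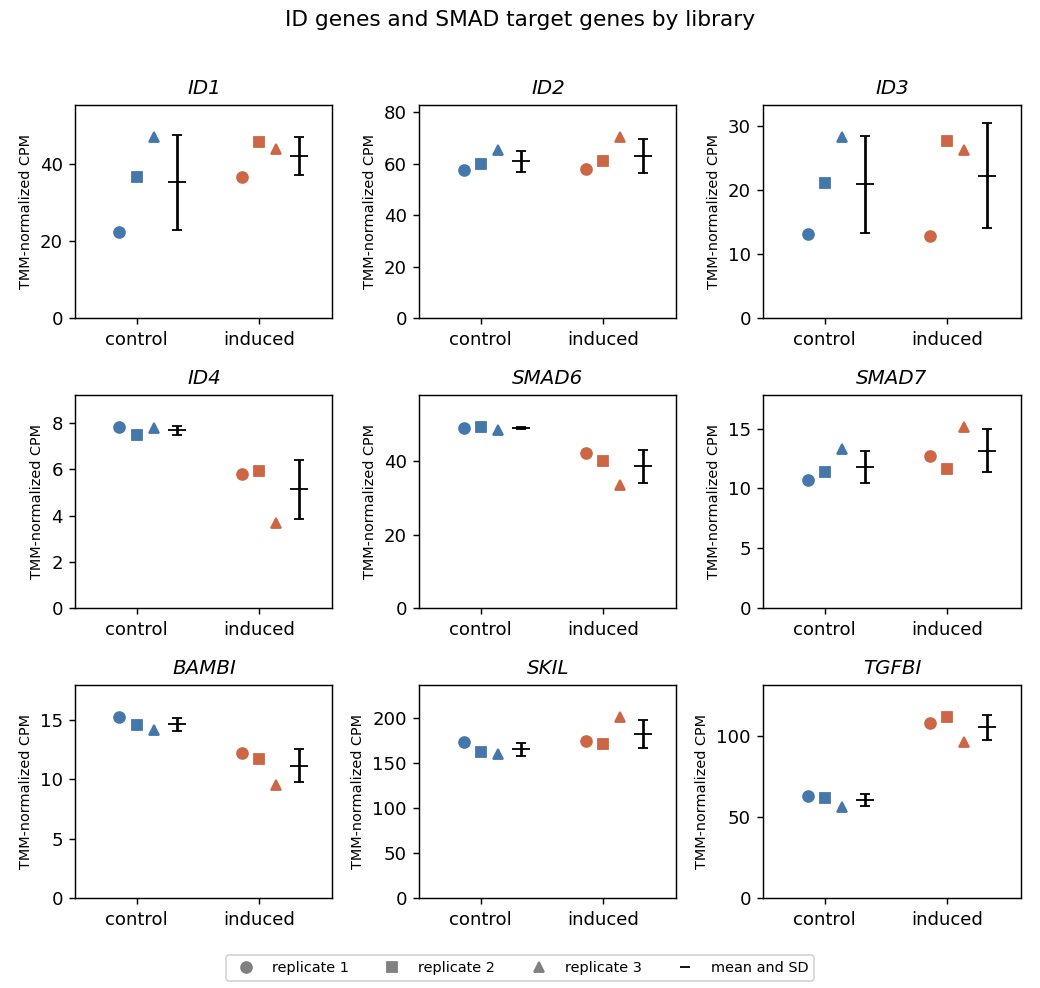
Level of each of the 9 genes in every library, in CPM on an axis of its own, with a point for each of the 3 control and 3 MYCN-induced libraries and a bar for the group mean. TGFBI lies at 56.3 to 63.3 CPM in controls and 96.4 to 111.6 CPM in induced libraries, while ID1 spreads from 22.2 to 46.9 CPM among the controls alone.

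The 4 ID genes did not move together. ID1 (ENSG00000125968.9, chromosome 20, 31605283 to 31606515, plus strand of GRCh38), a widespread early BMP target, was at 22.2, 36.5 and 46.9 CPM in control replicates 1, 2 and 3 and at 36.5, 45.7 and 43.9 CPM in induced replicates 1, 2 and 3. The control libraries spread over 2.11 times, and the induced values lay within their upper range. The means were 35.2 ± 12.4 and 42 ± 4.87 CPM (SD, n = 3 each), with a log2 fold change of 0.26 (SE 0.24, 95% interval -0.30 to 0.81, edgeR adjusted p = 0.629). Without control replicate 1, the lowest library, the log2 fold change was 0.01, and without control replicate 3, the highest, it was 0.52. It was 0.23 without induced replicate 3.

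ID3 (ENSG00000117318.9, chromosome 1, 23557926 to 23559501, minus strand) followed ID1 in the controls. It was at 13.2, 21.2 and 28.3 CPM in the controls and at 12.8, 27.7 and 26.3 CPM in the induced libraries, so that the lowest library of each group was near the other and the groups overlapped throughout. The means were 20.9 ± 7.58 and 22.3 ± 8.27 CPM (SD, n = 3 each), the log2 fold change was 0.09 (SE 0.34), and the 95% interval in folds ran from 0.62 to 1.84 (edgeR adjusted p = 0.919). The interval reached past the 1.53-fold lower bound of the rise in TGFBI, so a rise of that size in ID3 was not excluded. The direction of ID3 turned to -0.16 without control replicate 1, -0.09 without induced replicate 2 and -0.04 without induced replicate 3.

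The levels of GC-rich genes as a group also differed between libraries. ID1 was 58.6% GC and ID3 56.7%, in the longest GENCODE v44 transcript of each gene. Both lay in the ninth of 10 equal groups of genes ordered by GC content, from 56.7% to 60.4%, whose median log2 difference from the control mean was -0.13, 0.05 and 0.08 in control replicates 1, 2 and 3 and -0.01, -0.04 and 0.12 in induced replicates 1, 2 and 3. The log2 differences of ID1 in the same order were -0.59, 0.11 and 0.47, then 0.11, 0.43 and 0.38, and those of ID3 were -0.58, 0.09 and 0.49, then -0.62, 0.47 and 0.39. Control replicate 1 was the lowest control library in all of these, with larger shifts for ID1 and ID3 than for the GC group. ID3 was as low in induced replicate 1, where the GC group was at -0.01. SMAD6, with 58.9% GC, lay in the same GC group and differed by little among the controls (49.2, 49.3 and 48.7 CPM). In the group of highest GC, from 60.4% to 77.5%, the medians were -0.29, 0.09 and 0.21 in control replicates 1, 2 and 3. They were -0.03, 0.09 and 0.20 in induced replicates 1, 2 and 3. The part that GC content had in the spread of ID1 and ID3 was not tested. With a correction for GC content, the log2 fold change was 0.27 for ID1 and 0.12 for ID3 (edgeR adjusted p = 0.483 and 0.873).

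**Figure D2:**
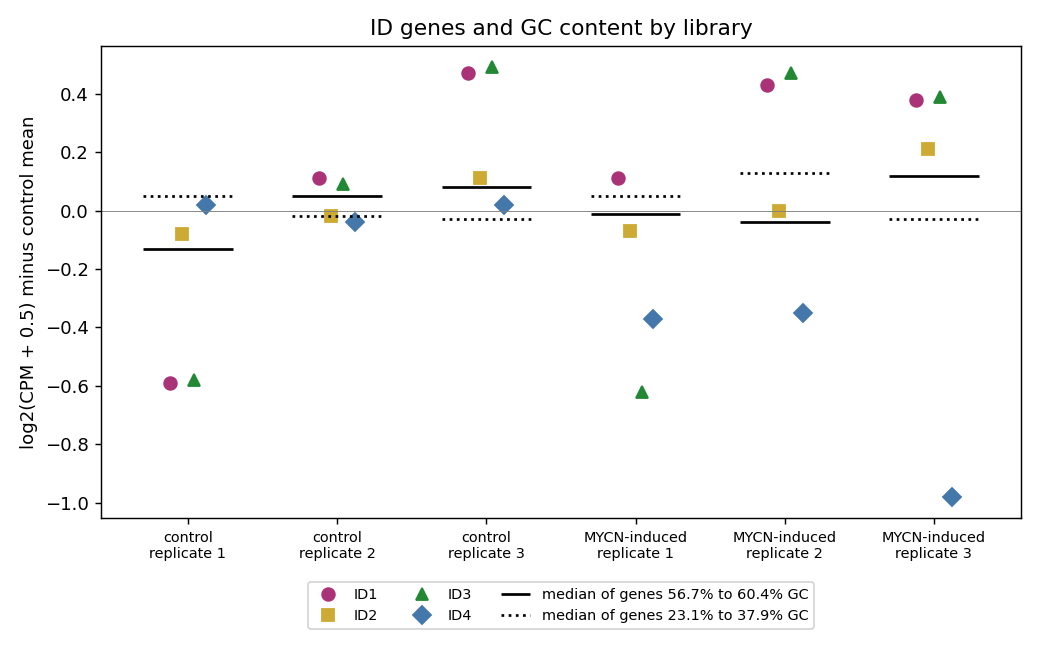
Log2(CPM + 0.5) of ID1, ID2, ID3 and ID4 minus the control mean in each of the 6 libraries (points), with the median of the genes from 56.7% to 60.4% GC (solid bar) and of those from 23.1% to 37.9% GC (dotted bar). ID1 and ID3 are both near -0.6 in control replicate 1, and ID4 is at -0.98 in induced replicate 3.

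ID2 (ENSG00000115738.10, chromosome 2, 8678845 to 8684461, plus strand), known as a target of MYC proteins as well as of BMP signalling, was the steadiest ID gene. It was at 57.4, 59.8 and 65.5 CPM in the controls and at 57.9, 60.9 and 70.3 CPM in the induced libraries, and the groups overlapped. The means were 60.9 ± 4.16 and 63.1 ± 6.47 CPM (SD, n = 3 each), and the 95% interval of the fold ran from 0.89 to 1.20 (log2 fold change 0.05, SE 0.09, edgeR adjusted p = 0.831). Its log2 fold change was -0.03 without induced replicate 3. ID2 was the one gene of the set with exon bases shared with another gene, 145 bases or 6.6% of its exons, with ID2-AS1 on the opposite strand. ID2-AS1, chosen after its values were seen, was at 62.5, 60.9 and 57.8 CPM in the controls and 46.8, 44.1 and 40.1 CPM in the induced libraries. It fell by 0.47 on the log2 scale (SE 0.08, edgeR adjusted p = 0.0237, range over the alternatives 3.034e-04 to 0.146). By the header of the counts no strand was used, so reads of the shared bases cannot be assigned to one of these genes.

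ID4 (ENSG00000172201.12, chromosome 6, 19837370 to 19842197, plus strand), the ID gene most tied to neural precursors, was the one ID gene whose groups did not overlap. It was at 7.82, 7.47 and 7.79 CPM in the controls and at 5.82, 5.92 and 3.66 CPM in the induced libraries. The controls lay close together, and induced replicate 3 lay well below the other induced libraries. The means were 7.69 ± 0.196 and 5.13 ± 1.28 CPM (SD, n = 3 each), which gave a log2 fold change of -0.58 (SE 0.18, 95% interval -1.01 to -0.16) that did not pass the adjustment (unadjusted p = 0.0127, edgeR adjusted p = 0.137). Without induced replicate 3, the difference was smaller, -0.38, and its adjusted p was 0.0397. Over the 14 alternatives the adjusted p of ID4 ran from 0.0397 to 0.358.

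Among the inhibitors, SMAD6 and BAMBI had almost the same pattern over the libraries. SMAD6 (ENSG00000137834.15, chromosome 15, 66702236 to 66782849, plus strand), which acts mainly on the BMP branch, was at 49.2, 49.3 and 48.7 CPM in the controls and at 42.3, 40.2 and 33.6 CPM in the induced libraries. All induced libraries were below all controls, and replicate 3 was the lowest. The means were 49 ± 0.343 and 38.7 ± 4.52 CPM (SD, n = 3 each), which gave a log2 fold change of -0.34 (SE 0.09, 95% interval -0.56 to -0.13, unadjusted p = 0.00647, edgeR adjusted p = 0.0983). Without induced replicate 3 it was -0.24, with an adjusted p of 0.0384, and over the 14 alternatives the adjusted p ran from 0.0384 to 0.343.

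BAMBI (ENSG00000095739.11, chromosome 10, 28677510 to 28682932, plus strand), a decoy for type I receptors, was at 15.2, 14.6 and 14.1 CPM in the controls and at 12.2, 11.7 and 9.54 CPM in the induced libraries. The groups did not overlap, and replicate 3 was again the lowest. The means were 14.6 ± 0.54 and 11.1 ± 1.4 CPM (SD, n = 3 each), which gave a log2 fold change of -0.39 (SE 0.11, 95% interval -0.65 to -0.13, unadjusted p = 0.00825, edgeR adjusted p = 0.11). Without induced replicate 3 it was -0.29 (adjusted p = 0.0618), and DESeq2 gave -0.38 with an adjusted p of 0.0462, the lowest of a range that reached 0.353.

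SMAD7 (ENSG00000101665.9, chromosome 18, 48919853 to 48952052, minus strand), the inhibitory SMAD of both branches, was at 10.7, 11.4 and 13.3 CPM in the controls and at 12.7, 11.6 and 15.1 CPM in the induced libraries. Unlike SMAD6, its groups overlapped, and its log2 fold change was 0.16 (SE 0.13, 95% interval -0.15 to 0.46, edgeR adjusted p = 0.582). SKIL (ENSG00000136603.14, chromosome 3, 170357678 to 170396835, plus strand) was at 173.8, 163.2 and 160.4 CPM in the controls and at 174.9, 172.1 and 201.2 CPM in the induced libraries. Its groups overlapped through control replicate 1 and induced replicate 2, and its log2 fold change was 0.14 (SE 0.08, 95% interval -0.04 to 0.32, edgeR adjusted p = 0.401). Without induced replicate 3, the highest library of both genes, the log2 fold changes were 0.05 for SMAD7 and 0.07 for SKIL. The difference between the changes of SMAD6 and SMAD7 was not tested.

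TGFBI (ENSG00000120708.17, chromosome 5, 136028988 to 136063818, plus strand) was at 63.3, 61.7 and 56.3 CPM in the controls and at 108.1, 111.6 and 96.4 CPM in the induced libraries. Every induced library was well above every control, and the gap between the groups was wider than the spread within either. The means were 60.4 ± 3.68 and 105.4 ± 7.99 CPM (SD, n = 3 each), a 1.74-fold rise with a 95% interval of 1.53 to 1.99 (log2 fold change 0.80, SE 0.08, edgeR adjusted p = 0.00476). TGFBI was called in all 14 alternatives, with log2 fold changes from 0.75 to 0.87 and adjusted p-values from 2.928e-12 to 0.0462, the highest without control replicate 2. Without induced replicate 3, where its level was lowest among the induced libraries, the log2 fold change was 0.87 (adjusted p = 0.00162).

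**Figure D3:**
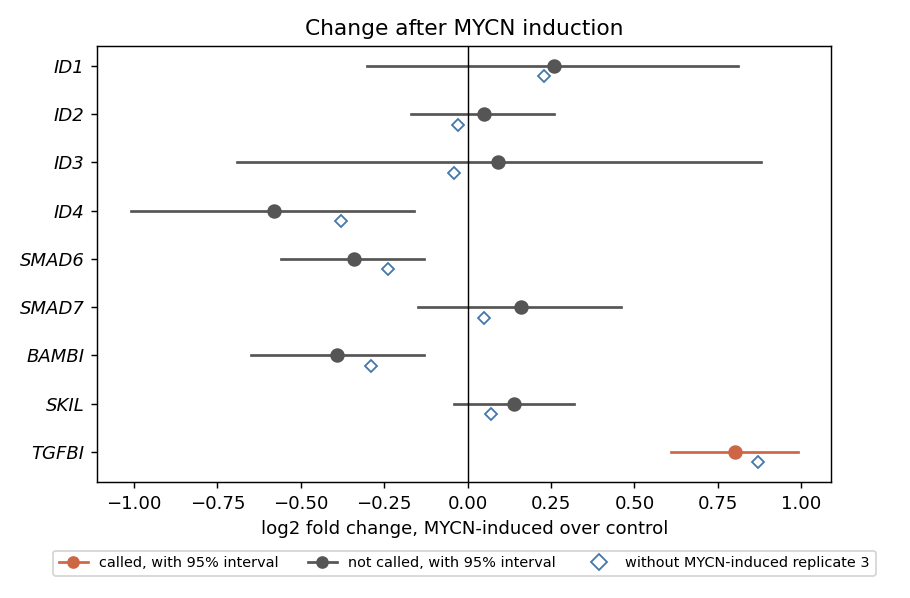
Log2 fold change of each of the 9 genes, MYCN-induced over control, with its 95% interval from the fit of all 6 libraries (circles) and the value without MYCN-induced replicate 3 (diamonds). TGFBI at 0.80 is the one gene called, and the intervals of ID4, SMAD6 and BAMBI lie below 0 without passing the adjustment over all genes.

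Per length, in TPM (counts divided by the exon bases of the gene and scaled to a common total), ID1 and ID2 were the highest in control cells, at 46.3 ± 14.3 and 45.1 ± 1.15 TPM (SD, n = 3 each). They were followed by SKIL at 35 ± 3.28 and ID3 at 22.6 ± 7.2 TPM. TGFBI was at 12.9 ± 1.4, BAMBI at 11.2 ± 0.989, SMAD6 at 9.41 ± 0.526, SMAD7 at 3.83 ± 0.257 and ID4 at 3.26 ± 0.201 TPM. The control libraries of ID1 overlapped those of ID2 and SKIL, and those of TGFBI overlapped those of BAMBI, so these neighbours did not differ beyond their spread, while the other neighbours in this order did not overlap. In induced cells TGFBI, at 22.6 ± 4.47 TPM, lay near ID3, at 24.4 ± 9.83 TPM, and BAMBI, SMAD6 and ID4 were at 8.64 ± 2, 7.5 ± 1.67 and 2.22 ± 0.778 TPM. These levels treat all annotated exon bases as transcribed, which lowers the value of genes with long, little-used exons. Unlike the CPM, the TPM were not TMM-normalized, so changes between groups are read from the CPM. In induced replicate 3, for instance, SKIL was the highest of the induced libraries by CPM (201.2) and the lowest by TPM (36.7).

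The likeness of patterns was measured as the root mean square difference of log2 CPM, relative to the control mean, over the 6 libraries. Within the set, SMAD6 and BAMBI differed by 0.04, ID2 and SMAD7 by 0.10, and ID2 and SKIL by 0.11. ID4 was nearer to BAMBI, at 0.17, and SMAD6, at 0.20, than to any other ID gene, the nearest of which was ID2 at 0.52. ID1 and ID3 differed by 0.30, and the most unlike pair was ID4 and TGFBI at 0.98. Over 10728 protein-coding genes, those most like ID1 were SF3A2, TMUB1 and CACTIN, at 0.046, 0.046 and 0.049 (median over all 0.400), and those most like ID2 were DNAJC17, HARBI1 and TM2D2, at 0.023, 0.024 and 0.028 (median 0.169). The nearest to ID3 were RHOT2, GAA and SCRIB, at 0.176, 0.179 and 0.188 (median 0.494), farther than the nearest of the other ID genes, and the nearest to ID4 were SLC10A4, TRPC4 and EPHA7, at 0.052, 0.058 and 0.058 (median 0.490). With 6 libraries and this many candidates, close matches are a description only.

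The rest of the pathway was read from 6 lists of 101 genes in all, of which 89 were tested, 6 were called higher and 8 lower, with a median log2 fold change of -0.04. Over all 29086 genes tested, 1.02% were called higher and 2.38% lower. The lists were chosen with earlier results of these data known, so list counts beside these shares are a description only. Of the 15 ligands 13 were tested and none passed in either direction (median 0.03). GDF11, the most abundant, was at 127.7 ± 1.61 and 130.2 ± 2.36 CPM (SD, n = 3 each), with a log2 fold change of 0.03 (edgeR adjusted p = 0.849). GDF6, a BMP-type ligand, was at 74.9, 75.5 and 75.1 CPM in the controls and 63.5, 70.1 and 37.2 CPM in the induced libraries, a log2 fold change of -0.40 (adjusted p = 0.344) that was -0.16 without induced replicate 3.

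All 18 receptors and signal-transducing SMADs were tested, with 1 called in each direction and a median of 0.02. SMAD3, which carries TGF-beta signals, was at 58.9, 60.2 and 56.1 CPM in the controls and rose to 79.9, 77.5 and 80.1 CPM (log2 fold change 0.44, SE 0.06, edgeR adjusted p = 0.0144). TGFBR3, the co-receptor betaglycan, was at 8.54, 7.84 and 7.98 CPM and fell to 5.21, 4.49 and 3.35 CPM (log2 fold change -0.90, SE 0.16, adjusted p = 0.0297). SMAD3 and TGFBR3 were each called in 10 of the 14 alternatives. Their highest adjusted p-values from edgeR, 0.102 and 0.133, came without control replicate 2. Of the 20 genes listed as other inhibitors 16 were tested, and again 1 was called in each direction (median -0.11). Besides inhibitors the list held LTBP1, LTBP2, LTBP3 and LTBP4, of a family named for binding latent TGF-beta. The gene of the list called lower was LTBP1. PMEPA1, which sequesters SMADs, rose from 8.7 ± 0.597 to 12.4 ± 0.631 CPM (log2 fold change 0.51, adjusted p = 0.0365), and LTBP1, which anchors latent TGF-beta in the matrix, fell from 6.27 ± 0.401 to 4.28 ± 0.394 CPM (-0.55, adjusted p = 0.0465; SD, n = 3 each). The PMEPA1 call was lost with library size only (adjusted p = 0.0648) and with the replicate block (0.0691), and the LTBP1 call without a count filter (0.0507) and with the block (0.0708).

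Of the 22 other TGF-beta targets 20 were tested, 0 were called higher and 4 lower, with a median of -0.23 (1.02% of all genes tested were called higher and 2.38% lower). These were CDKN1A, which encodes the cell cycle inhibitor p21 and is also a p53 target (11.2 ± 0.461 to 5.96 ± 1.65 CPM, log2 fold change -0.91), and the matrix genes FN1 (-0.71), THBS1 (314.3 ± 14.2 to 218.2 ± 9.45 CPM, -0.53) and COL3A1 (1217.9 ± 55.6 to 857.1 ± 107.6 CPM, -0.51), with adjusted p-values from edgeR of 0.0411, 0.033, 0.00904 and 0.0396 (SD, n = 3 each). The COL3A1 call was lost with library size only (adjusted p = 0.0678). At an unadjusted p under 0.05 the list had 4 genes higher and 8 lower, with 18.7% of all genes tested at that level. IL11, BHLHE40 and JUNB, named after their values were seen, were not called (adjusted p = 0.0526, 0.102 and 0.237) but were called higher in 4, 3 and 2 of the alternatives. COL1A2, ANGPTL4, ACTA2 and TPM1 were likewise not called (edgeR adjusted p = 0.0914, 0.085, 0.218 and 0.49). They were called lower in 2, 1, 1 and 1 of the alternatives. TGFBI, itself a matrix gene, was called higher. All 13 other BMP targets were tested, and 4 were called higher and 0 lower, with a median of 0.24, beside the same shares of all genes. For these targets 5 were higher and 2 lower at an unadjusted p under 0.05. DLX2 rose from 2.03 ± 0.147 to 6.06 ± 1.53 CPM (log2 fold change 1.58, adjusted p = 0.00762) and RUNX2 from 4.24 ± 0.335 to 11.6 ± 2.23 CPM (1.45, adjusted p = 0.0052). HEY1, which also answers Notch signalling, rose by 1.08 on the log2 scale (adjusted p = 0.0441) and MSX1 by 0.63 (adjusted p = 0.0303, all from edgeR). HEY1 rose by 0.76 without induced replicate 3 (adjusted p = 0.00689), and its call was lost with a floor of 100 counts in every library (adjusted p = 0.0588). ID1, ID2, ID3 and ID4, targets of the same branch, were not called, with log2 fold changes of 0.26, 0.05, 0.09 and -0.58. The difference between the ID genes and the 4 called BMP targets was not tested.

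Of the 15 bHLH genes listed as partners of the ID proteins 11 were tested, 0 were called higher and 2 lower (median -0.24), where 2.38% of all genes tested were called lower. One of these, HEYL, a Notch-responsive repressor rather than an E-protein partner, fell from 2.6 ± 0.23 to 1.68 ± 0.0442 CPM (SD, n = 3 each), by 0.63 on the log2 scale (edgeR adjusted p = 0.0398, and 0.0621 with the replicate block).

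Leaving out 1 library changed the number of these list calls. The counts of 6 higher and 8 lower became 2 and 3 without control replicate 1, 0 and 0 without control replicate 2, 1 and 2 without control replicate 3, 2 and 3 without induced replicate 1, 3 and 2 without induced replicate 2, and 11 and 15 without induced replicate 3. Among the 9 genes of the set, TGFBI was called in all of these fits.

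**Figure D4:**
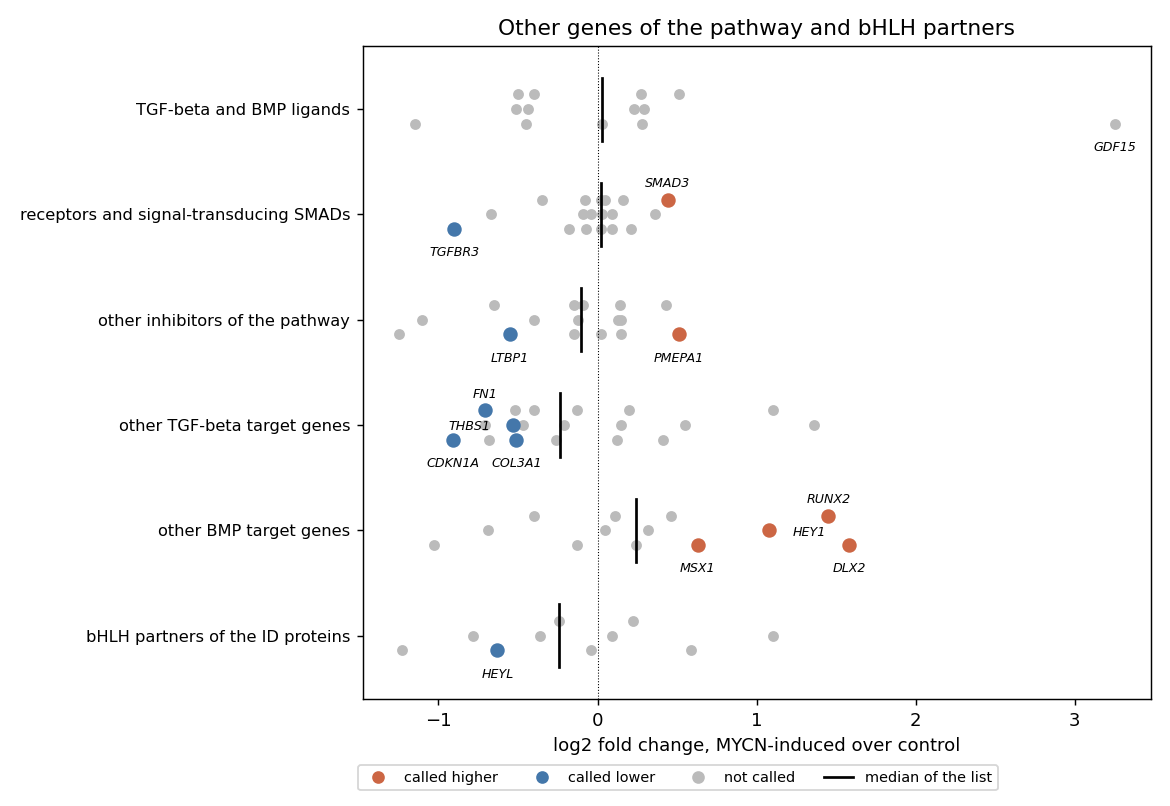
Log2 fold change, MYCN-induced over control, of the tested genes of the 6 lists (points, coloured where called, without the genes not reported here) with the median of each whole list (vertical bar). In the list of other TGF-beta targets the 4 called genes lie below 0, and in that of other BMP targets the 4 called lie above 0. PMEPA1, called higher at 0.51, is in the list of other inhibitors. TGFBI, called higher at 0.80, is in the set of 9 and not shown here. GDF15, at 3.25, was not called.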

How the data were processed

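SK-N-AS cells were profiled by rRNA-depleted total RNA sequencing in 3 control and 3 MYCN-induced libraries. The authors aligned reads with STAR 2.7.1a to GRCh38 and deposited estimated counts, namely read pairs per gene from featureCounts, with pairs over several genes shared in fractions. The header names version 1.6.4, unique alignments and no strand option, whereas the labels name version 1.5.1 and the study's methods a strand option. Between 31.9% and 33.4% of non-zero values were not whole, and counts were rounded. Names came from GENCODE v44, which matched 99.65% of identifiers.

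The 29086 genes that reached 10 counts in 3 or more libraries were fitted together with edgeR 4.0.16 (R 4.3.3): TMM, quasi-likelihood test, two-sided, Benjamini-Hochberg adjustment, threshold 0.05, no replicate block. DESeq2, the tool the study used, was run as an alternative in version 1.42.0. Standard errors are the log2 fold change divided by the square root of F. The test was checked on simulated data. With totals of 64500589 to 102249336, counting error is small beside the spread between libraries (biological coefficient of variation 0.153) for genes with many counts. It is not small for genes of few counts, such as GDF15, with 42 to 67 counts in every library but MYCN-induced replicate 3. Over the tested genes, all replicates differed by more than sampling noise. The study describes the replicates as independent experiments.

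Named genes were the 9 of the set, MYCN, up to 4 called genes per list and direction by size of change with a mean of at least 1 CPM (or the 2 most abundant where none was called), and the 3 protein-coding genes of at least 5 CPM most like each ID gene. The members and lists were chosen with earlier results of these data known, and the lists were written from general knowledge. Alternatives were library size only, upper-quartile normalization, DESeq2, no count filter, a floor of 100 counts in each library, the replicate block, omission of each library, and thresholds of 0.01 and 0.1. A GC correction (lowess, span 0.3), alone and with the block, was added after seeing the data. Promoters are RefSeq windows on GRCh38.p14. Some genes that the rule names are not reported here.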

Additional observations from a re-analysis of the deposited data

How the results depend on the processing

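Of 126 recomputed log2 fold changes of the 9 genes, 119 stayed on the same side of 0 and of the threshold, 3 passed it (ID4 and SMAD6 without MYCN-induced replicate 3, and BAMBI at -0.38 with DESeq2) and 4 turned direction, all in ID2 and ID3 and none called. In fits leaving out 1 library, ID1 ran from 0.01 to 0.52, ID2 from -0.03 to 0.11, ID3 from -0.16 to 0.38, ID4 from -0.70 to -0.38 and SMAD6 from -0.40 to -0.24, PTPRC from -0.35 to 0.04 and EPCAM from -0.16 to 0.35. GDF11 turned to -0.0044 when scaled by library size only and to -0.0029 by the upper quartile. Genes of the set called lower (0) became 1 with DESeq2, 1 at a threshold of 0.1 and 0 to 2 leaving out 1 library. Genes called higher (298) became 904 with DESeq2, 470 without a count filter, 466 with the GC correction, 36 and 706 at thresholds of 0.01 and 0.1, and 18 to 1060 leaving out 1 library. Genes called lower (692) became 1199 with DESeq2, 404 at 100 counts in every library, 145 and 1242 at those thresholds, and 72 to 1279 leaving out 1 library, the fewest in both directions without control replicate 2 and the most without MYCN-induced replicate 3. Pathway genes called higher (6) became 11 with DESeq2, 2 at 0.01 and 0 to 11 leaving out 1 library, and those called lower (8) became 17 with DESeq2, 13 with the GC correction, 2 and 17 at 0.01 and 0.1, and 0 to 15 leaving out 1 library. The cause of these shifts was not tested. With the replicate block, 265 genes were called higher and 575 lower, 689 of the calls were shared with the fit without it, TGFBI was at 0.80 (adjusted p = 0.00719) and the calls of PMEPA1, LTBP1 and HEYL were lost. Deviations of same-numbered libraries had correlations across genes of 0.22, -0.02 and 0.07, and not every library correlated best with its own number. With 3 libraries per group, these values cannot tell whether same-numbered libraries shared an experiment.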

Other observations

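2 genes of the lists, chosen after their values were seen, had large differences that were smaller without MYCN-induced replicate 3. GDF15, a stress-responsive ligand of the TGF-beta family, was at 0.411, 0.553 and 0.661 CPM in the controls and at 0.647, 0.579 and 14.2 CPM in the induced libraries. The log2 fold change of GDF15 was 3.25 (edgeR adjusted p = 0.199), and 0.18 without that library. BHLHE40, a bHLH repressor, was at 2.29, 2.55 and 2.21 CPM in the controls and at 4.1, 3.66 and 10.3 CPM in the induced libraries, with log2 fold changes of 1.36 (adjusted p = 0.102) and 0.73 without that library (adjusted p = 0.0162, edgeR, within a range over the alternatives of 0.00355 to 0.303). The groups overlapped for GDF15 and did not for BHLHE40.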
